A study of Mus musculus with 6 samples.

Results

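The 43 genes described here encode enzymes and regulators of sterol, fatty acid and meibum-type lipid synthesis, the routes that supply membranes, lipid droplets and the oily secretion of the eyelid glands. They were chosen by name for their known roles, and all 43 were found by their identifier among the 39089 genes of the deposited table. They were measured by RNA sequencing in the mouse corneal limbus, a narrow border zone around the cornea where stem cells of its epithelium reside. All 6 samples came from WT mice. In the 3 L-733,060 samples, mice had received under the conjunctiva an antagonist of the NK1 receptor, the receptor of the neuropeptide substance P, on days 0 and 3. In the 3 control samples the injection held sterile water, and the tissue was collected after a week in both. Strain, age and the dates of the water injections are not in the labels, nor is it said whether the samples of a group came from separate mice. The p-values therefore measure only how these samples spread, and that spread may be technical.

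Cholesterol is made from acetyl-CoA through mevalonate, farnesyl diphosphate, squalene and lanosterol. Transcription of these enzymes is driven by SREBP2, and that of fatty acid synthesis and desaturation mainly by SREBP1, membrane-bound factors that INSIG proteins hold back in the endoplasmic reticulum when sterols are plentiful. Meibum, secreted by the meibomian glands onto the tear film, is built from wax esters and cholesteryl esters of very long fatty acids, made by elongases, fatty acyl-CoA reductases and acyltransferases.

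Of the 43 genes, 41 had enough reads to be tested, and 26 of them passed an adjusted p of 0.05 in edgeR's quasi-likelihood test, 14 higher and 12 lower with L-733,060. That count stands against a background in which 41.3% of all 15712 tested genes passed, 21.4% higher and 19.9% lower. The 3 and 3 samples did not overlap for 25 of the 41 members, against 52% of all tested genes. The median log2 fold change (L-733,060 over control) was 0.01 over the members and -0.00 over all tested genes. Only 4 members, Soat1, Acsbg1, Insig1 and Scd2, passed with a log2 change of at least 1 in either direction, a size that 19% of all tested genes reached. The directions differed by role. None of the SREBP system and fatty acid synthesis members passed as higher. None of the wax ester, sterol ester, acyl activation and triglyceride members passed as lower, and the sterol enzymes were split. These lists other than the sterol enzymes hold only 3 to 7 tested genes each. Genes of the same roles outside the members moved both ways. Of 12 further fatty acid synthesis genes 4 rose and 3 fell, and of 13 further ester and triglyceride genes 2 rose and 3 fell. The count of 14 higher members was 7 without control 1, 7 without control 3 and 9 without L-733,060 sample 1. In the same fits the share of all tested genes that passed also fell, to 31.7%, 31.9% and 31.3%.

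**Figure D1:**
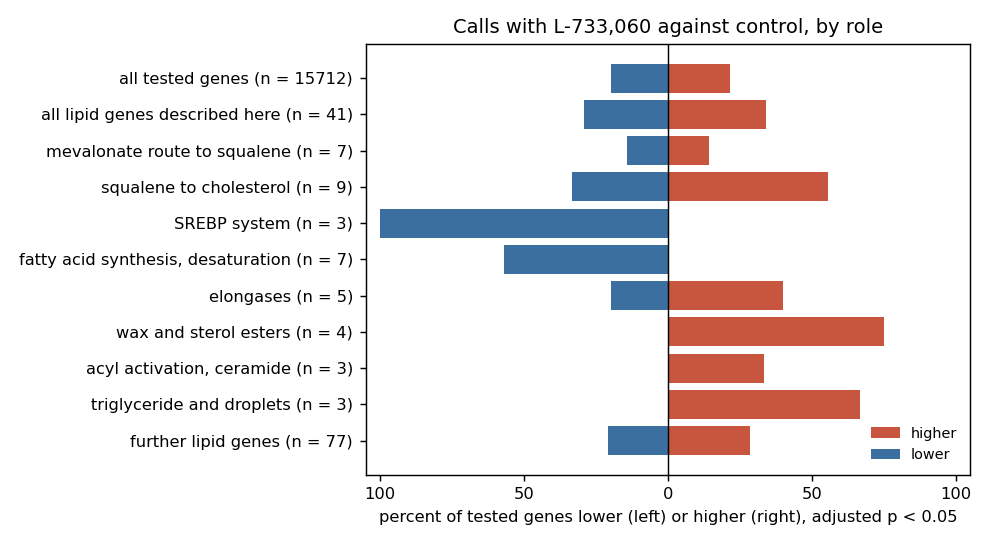
Percent of tested genes called lower (bars to the left) or higher (bars to the right) with L-733,060 at an edgeR adjusted p under 0.05, for all tested genes, for the 41 tested members, for each role and for the 77 further lipid genes. The SREBP system and fatty acid synthesis have bars to the left alone, while wax and sterol esters, acyl activation and triglyceride genes have bars to the right alone.

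The 3 genes of the SREBP system fell together. Insig1, which encodes the sterol-regulated anchor of the SREBP complex and is itself induced by SREBPs, lies on chr5:28071412-28078662 of mm10. It stood at 450.0, 584 and 498 CPM in controls 1 to 3 and at 205, 218 and 176 CPM in L-733,060 samples 1 to 3. The groups were far apart, and the highest treated sample was below the lowest control. The mean went from 511 ± 68.0 to 199.9 ± 21.4 CPM (SD, n = 3), a 2.55-fold fall (log2 -1.35, SE 0.14, adjusted p = 1.53e-05). Srebf1, the gene of SREBP1, had 84.3, 65.5 and 77.1 CPM in controls and 32.6, 30.1 and 57.2 CPM with L-733,060. The groups did not overlap, but L-733,060 sample 3 lay well above the other two of its group. The log2 change was -0.92 (SE 0.21, adjusted p = 0.00493). Srebf2, the gene of SREBP2, fell from 225 ± 43.6 to 130.3 ± 32.4 CPM (log2 -0.79, SE 0.18, adjusted p = 0.00477), with L-733,060 sample 3 again the highest treated sample and control 1 the highest control.

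Insig2, the second anchor gene and not a member, was looked at after the values were seen because it is the partner of Insig1. It rose from 89.4 ± 10.8 to 140.5 ± 16.6 CPM (log2 0.65, SE 0.13, adjusted p = 0.00211). TPM are scaled by the deposited gene length, here 2648 bases for Insig1 and 7015 for Insig2. They compare genes only as far as these lengths match the transcripts present. In TPM, Insig1 made up 93.8% ± 0.194 of the summed level of both genes in controls and 79.0% ± 2.15 with L-733,060 (SD, n = 3). Scap, the gene of the escort protein that carries SREBPs, had a log2 change of -0.24 and did not pass (adjusted p = 0.397).

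**Figure D2:**
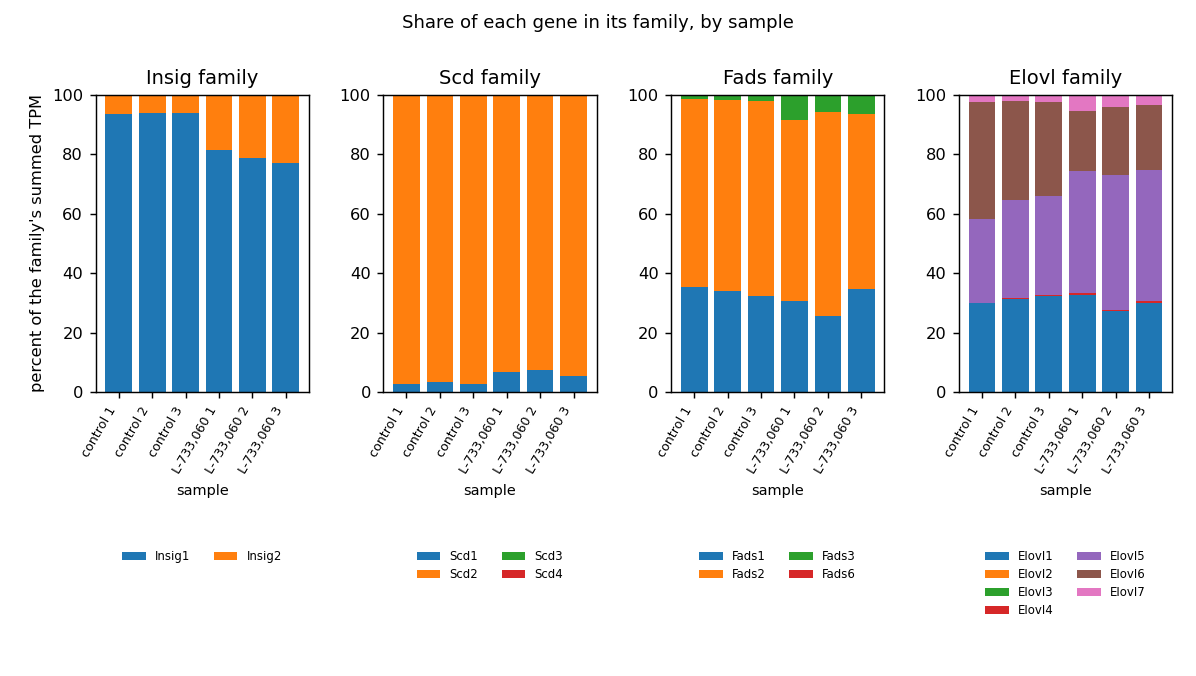
Share of each gene in the summed TPM of its family (percent) in every sample, for the Insig, Scd, Fads and Elovl families. Insig1 makes up 93.8% of the Insig level in controls and 79.0% with L-733,060, and Elovl6 goes from 34.8% to 21.6% of the Elovl level.

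Promoters of 6 members are printed because SREBPs act at sterol regulatory elements together with the factor NF-Y, whose element is CCAAT, and these members span the directions seen. They comprise Hmgcs1, the classical carrier of such elements, and a pair of sterol enzymes that rose (Hsd17b7 and Ebp). The others are Insig1, 1 of several SREBP-driven members that fell, and the pair of members with the largest rises (Soat1 and Acsbg1). Scd2, which fell about as much as Insig1 (log2 -1.35), had no promoter sequence available. Each sequence is the RefSeq strand of the gene on GRCm38.p6, 5′ to 3′, from 250 bases before the transcription start to 50 after it. Capitals mark matches to the NF-Y element CCAAT, which appears as ATTGG where it lies on the opposite strand, or to the sterol element TCACNCCAC, in which N is any base. Both strands were searched.
Hmgcs1: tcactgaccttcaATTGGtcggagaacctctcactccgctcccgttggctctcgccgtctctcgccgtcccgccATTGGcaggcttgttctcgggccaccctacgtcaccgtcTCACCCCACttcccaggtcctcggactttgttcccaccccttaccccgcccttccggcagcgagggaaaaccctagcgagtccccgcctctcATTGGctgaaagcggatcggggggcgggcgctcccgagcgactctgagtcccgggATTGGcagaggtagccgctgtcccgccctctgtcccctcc
Hsd17b7: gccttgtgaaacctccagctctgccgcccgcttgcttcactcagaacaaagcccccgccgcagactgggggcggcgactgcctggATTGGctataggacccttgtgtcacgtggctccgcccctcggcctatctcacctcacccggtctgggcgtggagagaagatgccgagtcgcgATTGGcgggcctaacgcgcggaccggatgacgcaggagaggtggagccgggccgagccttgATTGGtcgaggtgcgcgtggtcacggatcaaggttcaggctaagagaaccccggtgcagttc
Ebp: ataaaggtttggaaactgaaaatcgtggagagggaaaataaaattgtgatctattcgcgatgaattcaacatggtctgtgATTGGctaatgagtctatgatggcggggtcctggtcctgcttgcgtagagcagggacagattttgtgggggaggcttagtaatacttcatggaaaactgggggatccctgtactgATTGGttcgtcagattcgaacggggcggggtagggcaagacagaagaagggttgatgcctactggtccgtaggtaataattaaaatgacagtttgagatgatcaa
Insig1: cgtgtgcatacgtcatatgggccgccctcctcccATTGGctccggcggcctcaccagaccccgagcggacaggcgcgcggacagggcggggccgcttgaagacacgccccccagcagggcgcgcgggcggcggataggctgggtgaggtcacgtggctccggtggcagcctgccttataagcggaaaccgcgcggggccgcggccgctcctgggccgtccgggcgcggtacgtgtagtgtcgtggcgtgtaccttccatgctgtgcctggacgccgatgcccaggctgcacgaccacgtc
Soat1: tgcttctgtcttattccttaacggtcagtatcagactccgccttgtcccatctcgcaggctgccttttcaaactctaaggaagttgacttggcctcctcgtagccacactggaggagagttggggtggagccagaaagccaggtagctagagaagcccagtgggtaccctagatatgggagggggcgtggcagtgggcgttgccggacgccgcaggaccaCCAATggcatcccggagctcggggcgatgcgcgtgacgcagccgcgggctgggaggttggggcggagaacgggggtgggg
Acsbg1: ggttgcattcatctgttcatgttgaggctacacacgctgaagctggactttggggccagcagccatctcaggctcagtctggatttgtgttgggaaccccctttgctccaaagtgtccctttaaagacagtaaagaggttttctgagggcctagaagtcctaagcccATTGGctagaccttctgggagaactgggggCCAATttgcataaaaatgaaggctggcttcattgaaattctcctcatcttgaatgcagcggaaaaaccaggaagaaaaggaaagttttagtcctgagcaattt
The windows lie at chr13:119690101-119690400 (plus strand) for Hmgcs1, chr1:169969156-169969455 (minus strand) for Hsd17b7, chrX:8193463-8193762 (minus strand) for Ebp, chr5:28071162-28071461 (plus strand) for Insig1, chr1:156474279-156474578 (minus strand) for Soat1 and chr9:54661836-54662135 (minus strand) for Acsbg1. Hmgcs1 held 4 CCAAT matches and 1 TCACNCCAC match, which began 137 bases upstream of the start. Hsd17b7 held 3 CCAAT matches, Ebp and Acsbg1 held 2 each, and Insig1 and Soat1 held 1 each. Of the 34 members with a window in the RefSeq table, 27 (79.4%) had at least 1 CCAAT match, against 41.1% of all 27025 genes with a window. Among tested members it was present in 11 of 13 that rose, 7 of 9 that fell and 8 of 11 that did not pass. TCACNCCAC was found in 1 of the 34 members, Hmgcs1, and in 1.44% of all genes. A match is a description of the letters in the window and not a binding site.

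The 16 enzymes of cholesterol synthesis were divided along the route, with 6 higher, 4 lower and 6 not past the threshold. Of the 7 that lead from acetyl-CoA units to squalene, 1 rose and 1 fell. Idi1, the isomerase that makes dimethylallyl diphosphate (chr13:8885606-8892396), had 52.3, 58.7 and 36.4 CPM in controls and 72.1, 117 and 68.9 CPM with L-733,060. All treated samples lay above all controls, with L-733,060 sample 2 far above the rest. The 1.75-fold rise (log2 0.81, SE 0.22, adjusted p = 0.0111) was lost without control 3 (adjusted p = 0.0532). Mvk, mevalonate kinase, fell from 38.8 ± 8.57 to 25.8 ± 3.41 CPM (log2 -0.59, SE 0.17, adjusted p = 0.0149), a call lost without control 1 (adjusted p = 0.0755) or treated sample 1 (adjusted p = 0.0630).

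Hmgcs1, the synthase that makes HMG-CoA, averaged 418 ± 80.8 CPM in controls against 399.9 ± 63.5 CPM in treated samples (log2 -0.06, adjusted p = 0.788). Fdps, farnesyl diphosphate synthase and the most abundant member per deposited gene length in controls (661 ± 38.3 TPM), was lower in all 3 treated samples than in any control but did not pass (log2 -0.26, adjusted p = 0.11). Pmvk (log2 0.20), Mvd (log2 -0.00) and Fdft1 (log2 0.26), which phosphorylate and decarboxylate mevalonate and join farnesyl units to squalene, did not pass either. Part of Fdft1 overlaps Ctsb on the opposite strand, an abundant gene with which reads could be shared.

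From squalene onward 8 of 9 enzymes passed, and they moved in both directions. Sqle, the squalene epoxidase, fell from 268 ± 14.0 to 192 ± 12.6 CPM (log2 -0.48, SE 0.11, adjusted p = 0.00541). Lss, the cyclase that forms lanosterol, fell from 133 ± 21.2 to 94.8 ± 8.46 CPM (log2 -0.49, SE 0.14, adjusted p = 0.0133), which did not pass without control 1 (adjusted p = 0.0628) or treated sample 1 (adjusted p = 0.0672). The members of the next steps, which strip methyl groups from lanosterol and shift its double bond, were higher. Tm7sf2, outside the member list and described below, fell in this stretch.

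Hsd17b7, the ketosteroid reductase of the demethylation complex (chr1:169949535-169969242), had 44.2, 43.5 and 31.8 CPM in controls and 67.9, 75.8 and 60.5 CPM with L-733,060. Its groups were clearly separated, and it rose by log2 0.77 (SE 0.15, adjusted p = 0.00159). Ebp, the sterol isomerase on chrX:8185329-8193512, had 47.2, 59.1 and 51.7 CPM in controls and 87.3, 87.0 and 78.0 CPM with L-733,060. No treated sample came near a control, and the change was log2 0.68 (SE 0.12, adjusted p = 0.00107), the smallest p among the sterol enzymes. Cyp51, the lanosterol demethylase, rose from 171 ± 28.2 to 243 ± 36.9 CPM (log2 0.51, adjusted p = 0.0186).

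Msmo1 (log2 0.46, adjusted p = 0.0413) and Nsdhl (log2 0.42, adjusted p = 0.0313), which act in the same demethylation steps, rose with overlapping groups. The calls of Cyp51, Msmo1 and Nsdhl were each lost on leaving out any 1 of several libraries. Over all alternatives their lowest log2 changes were 0.383, 0.316 and 0.331. Cyp51 did not pass without control 1 (adjusted p = 0.0594), control 3 (0.0985) or treated sample 2 (0.0727). Leaving out control 1, control 3, L-733,060 sample 1 or L-733,060 sample 2 gave adjusted p = 0.140, 0.171, 0.0655 and 0.158 for Msmo1. The same omissions gave adjusted p = 0.127, 0.112, 0.0914 and 0.106 for Nsdhl.

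At the end of the route, Sc5d, the lathosterol desaturase, did not pass (log2 -0.09, adjusted p = 0.630). Dhcr7, the reductase that completes cholesterol (chr7:143823167-143848410), had 44.8, 34.5 and 41.0 CPM in controls and 19.9, 17.9 and 28.4 CPM with L-733,060. Every treated sample was below every control, and it fell by 0.86 on the log2 scale (SE 0.18, adjusted p = 0.00229). Tm7sf2, a sterol reductase outside the member list that acts just after Cyp51, fell from 26.8 ± 6.28 to 13.2 ± 0.982 CPM (log2 -1.02, adjusted p = 0.000711). Lbr, which carries the same reductase activity, rose (log2 0.37, adjusted p = 0.0230), and this call was lost without control 1, 2 or 3 or treated sample 2 (adjusted p of 0.0779, 0.0621, 0.0779 and 0.0815).

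**Figure D3:**
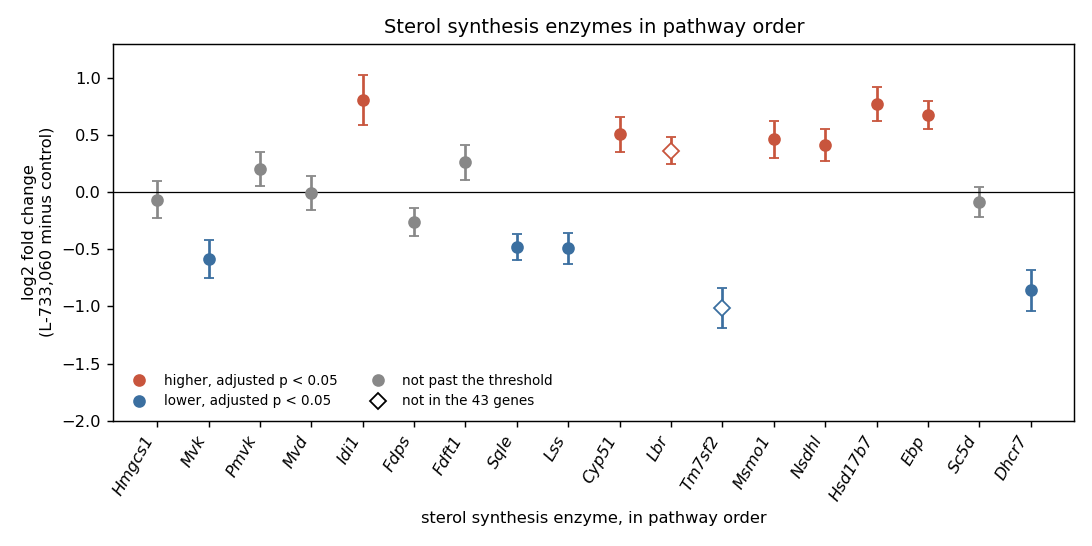
Log2 fold change (L-733,060 over control) of the sterol enzymes in pathway order, with error bars of 1 SE and colour for the edgeR call; filled circles are the 16 members and open diamonds are Lbr and Tm7sf2. Sqle and Lss lie below 0, Cyp51, Msmo1, Nsdhl, Hsd17b7 and Ebp lie above it, and Dhcr7 is the lowest member at -0.86.

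The summed level of the 16 enzymes was 1927 ± 161 TPM in controls and 1947 ± 145 TPM with L-733,060 (SD, n = 3), and the groups overlapped. Samples of 1 group also moved together across these genes. Control 3 was the lowest control for 12 of the 16 enzymes, a place it took for 28.4% of all tested genes. L-733,060 sample 2 was the highest treated sample for 11 of 16, against 33.4% of all tested genes. The count of 6 higher enzymes was 3 without control 1, 2 without control 3 and 3 without L-733,060 sample 2, and the count of 4 lower enzymes was 2 without control 1 and 2 without L-733,060 sample 1. Over all tested genes, 31.7% passed without control 1 and 31.9% without control 3. The share was 31.3% without L-733,060 sample 1 and 35.0% without L-733,060 sample 2.

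Fatty acid synthesis and desaturation showed falls only, in 4 of 7 genes. Scd2, a stearoyl-CoA desaturase that makes monounsaturated fatty acids (chr19:44293676-44306864), had 996, 763 and 710.3 CPM in controls and 274, 313 and 381 CPM with L-733,060. The lowest control was well above the highest treated sample. The mean went from 823 ± 152 to 323 ± 54.3 CPM (log2 -1.35, SE 0.16, adjusted p = 5.70e-05). Its homologue Scd1, which predominates in many other mouse tissues, was scarce here at 9.79 ± 1.91 TPM in controls, against 316 ± 68.9 TPM for Scd2. Scd1 did not pass (log2 -0.18, adjusted p = 0.414).

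Acly, which makes cytosolic acetyl-CoA from citrate for both sterol and fatty acid synthesis, fell from 305 ± 49.7 to 181 ± 20.9 CPM (log2 -0.75, SE 0.14, adjusted p = 0.00135). Fads1 and Fads2, the desaturases of polyunsaturated fatty acids, fell by 0.93 (adjusted p = 0.00178) and 0.80 (adjusted p = 0.00145) on the log2 scale. Acaca, acetyl-CoA carboxylase, did not pass (log2 0.17, adjusted p = 0.448).

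Fasn, fatty acid synthase, varied widely within both groups. It had 166, 95.4 and 114 CPM in controls and 65.6, 59.0 and 132 CPM with L-733,060, so that L-733,060 sample 3 lay inside the control range. It did not pass (log2 -0.55, SE 0.28, adjusted p = 0.141), but did without L-733,060 sample 3 (log2 -1.02, adjusted p = 0.000177). Over all alternatives its adjusted p ran from 0.000177 to 0.487. L-733,060 sample 3 was also the highest treated sample for Srebf1 and Srebf2. The summed level of the 7 genes was 573 ± 123 TPM in controls and 286 ± 59.8 TPM with L-733,060.

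**Figure D4:**
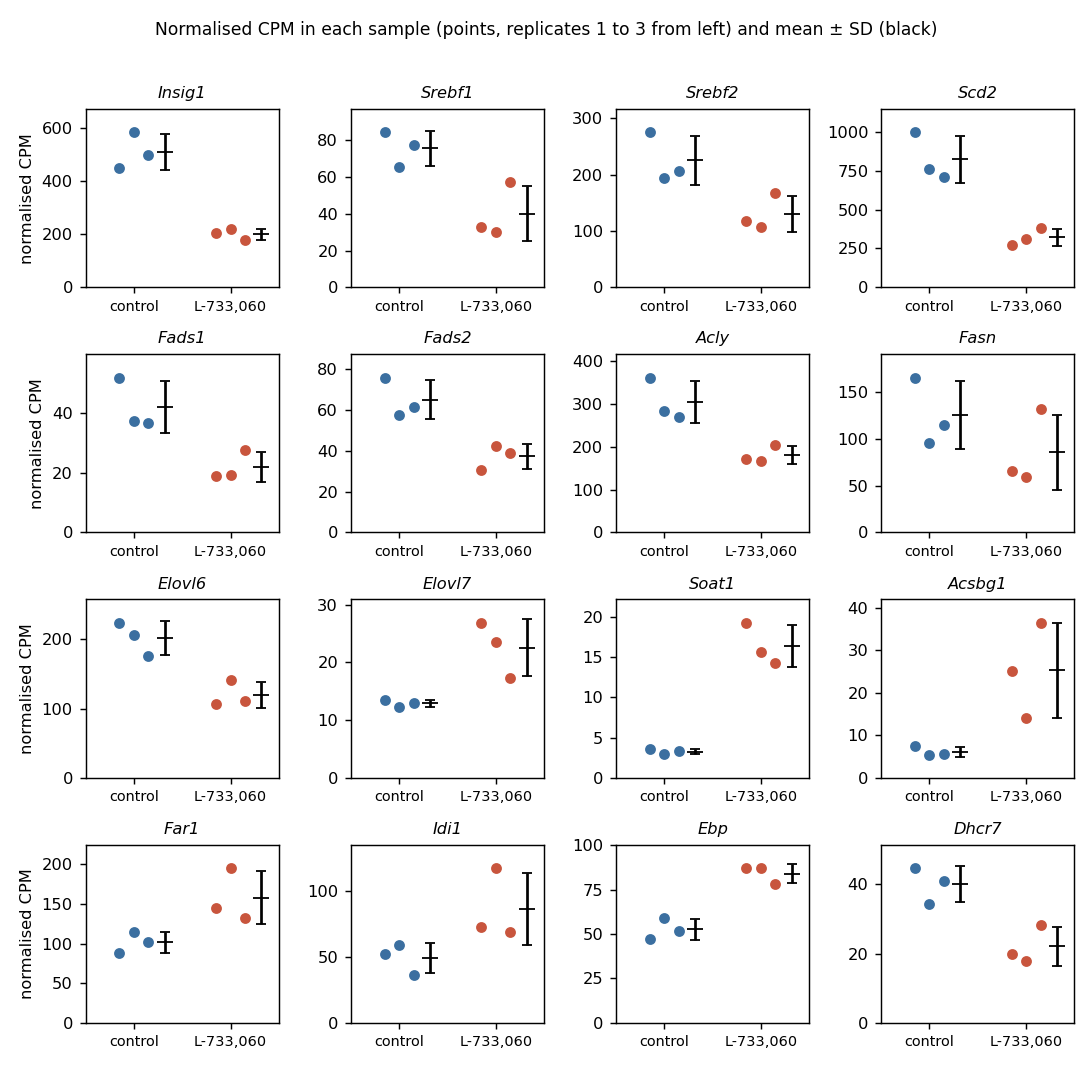
Normalised CPM (linear axes from 0) of 16 members, with 1 point per sample and the mean ± SD of each group in black. Insig1, Scd2 and Elovl6 are lower and Soat1, Acsbg1, Idi1 and Ebp higher in every L-733,060 sample than in any control, and L-733,060 sample 3 of Fasn lies inside the control range.

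The elongases, which lengthen fatty acids by adding malonyl units, changed in different directions. Elovl6, which elongates palmitate and palmitoleate (chr3:129532386-129638495), had 224, 207 and 175 CPM in controls and 107, 141 and 111 CPM with L-733,060. The groups were separate, and the fall was log2 -0.76 (SE 0.14, adjusted p = 0.00125). Elovl7, which acts on saturated very long chains, rose from 12.9 ± 0.646 to 22.5 ± 4.91 CPM (log2 0.81, SE 0.17, adjusted p = 0.00288). Elovl5, which elongates polyunsaturated fatty acids, rose (log2 0.40, adjusted p = 0.0365), a call that ended without control 1 (adjusted p = 0.149), control 3 (0.0992) or treated sample 2 (0.139).

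Elovl1, an elongase of saturated very long chains, did not pass (log2 -0.14, adjusted p = 0.360). In controls, Elovl6, Elovl5 and Elovl1 each held about the same part of the family's summed TPM (34.8% ± 4.06, 31.4% ± 2.85 and 31.2% ± 1.28). With L-733,060, Elovl5 held 43.5% ± 2.18 and Elovl6 21.6% ± 1.40, while their summed level with the other elongase members was 203 ± 5.22 TPM in controls and 195 ± 18.2 TPM with L-733,060. The elongases most associated with meibum were at or near absence. Elovl3 had 0 counts in all 6 samples, where 3 counts correspond to 0.128 to 0.161 CPM, and Elovl4 had 10 to 42 counts per sample (log2 0.76, adjusted p = 0.216).

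Of the 5 genes of wax and sterol ester synthesis, 4 were tested and 3 of these rose. Soat1, which esterifies cholesterol with fatty acids (chr1:156428108-156474328), showed the largest rise of all members. It had 3.52, 2.96 and 3.29 CPM in controls and 19.3, 15.7 and 14.3 CPM with L-733,060. The controls were close together and every treated sample was far above them, a 5.03-fold rise (log2 2.33, SE 0.19, adjusted p = 2.36e-06). In TPM it went from 1.41 ± 0.186 to 7.15 ± 0.795. Soat2, the other sterol acyltransferase gene and no member, had 3 counts in the controls, all in control 3, and 62 with L-733,060. The depth-adjusted ratio was 22.2, with an exact 95% counting interval of 7.24 to 110.3, and without control 3 it was at least 14.3, with the controls set to a floor of 3 counts in all.

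Far1 and Far2, fatty acyl-CoA reductases that make the alcohols of wax esters and ether lipids, rose. Far1 went from 102 ± 13.1 to 158 ± 33.5 CPM (log2 0.63, SE 0.16, adjusted p = 0.00759). Far2 went from 15.5 ± 2.68 to 21.5 ± 1.24 CPM (log2 0.48, adjusted p = 0.0274), a call that was lost without control 1 (adjusted p = 0.0795), control 3 (0.127) or treated sample 1 (0.0997). Far2 overlaps Ergic2 on the opposite strand (4143 counts in controls and 5065 in treated samples), so its counts may hold reads of that gene. The wax synthases of meibum were scarce. Awat2 had 31 counts in all controls together and 30 in all treated samples (log2 0.04, adjusted p = 0.952), and Awat1 had 0 counts in all 6 samples, so no wax synthase change was detectable at this depth.

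Acsbg1, an acyl-CoA synthetase for long and very long fatty acids (chr9:54604886-54661885), had 7.35, 5.40 and 5.47 CPM in controls and 25.1, 14.2 and 36.5 CPM with L-733,060. All treated samples lay above the controls but were spread widely among themselves. The rise was 4.17-fold (log2 2.06, SE 0.29, adjusted p = 0.000178). Acsbg1 overlaps the antisense gene Gm51677, which had 22 counts over the control samples and 113 over the treated ones, and since no strand setting is stated for the counting, reads of the 2 genes may be mixed. Cers3, a ceramide synthase for the ultra-long ceramides of skin (log2 0.34, adjusted p = 0.0829), and Cers4, another ceramide synthase (log2 -0.20, adjusted p = 0.466), did not pass.

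Among the 3 genes of triglyceride and droplet formation, Dgat1, which completes triglycerides (chr15:76502012-76512021), had 12.3, 13.3 and 14.0 CPM in controls and 24.5, 16.2 and 17.6 CPM with L-733,060. The groups were separate, with L-733,060 sample 1 standing above the rest. The log2 change was 0.56 (SE 0.17, adjusted p = 0.0229), which did not pass when control 1 (adjusted p = 0.0882), control 2 (0.0630) or the first treated sample (0.141) was left out. Plin2, a coat protein of lipid droplets, rose from 34.0 ± 3.56 to 46.8 ± 10.2 CPM (log2 0.46, adjusted p = 0.0371). That call was lost without control 1 (adjusted p = 0.142), control 3 (0.0973) or treated sample 1 (0.209). Dgat2, the other and more abundant triglyceride synthase gene, did not pass (log2 0.01, adjusted p = 0.940).

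**Figure D5:**
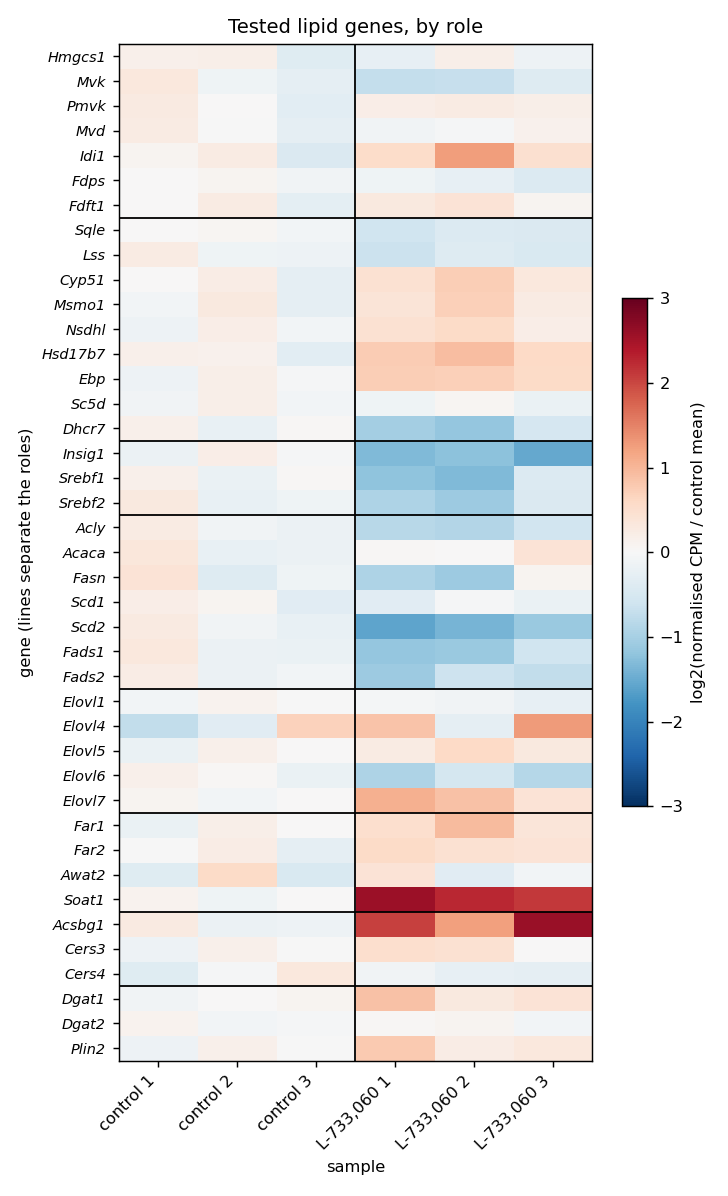
Heat map of the 41 tested members (rows, by role) in the 6 samples (columns), coloured by the log2 ratio of normalised CPM to the control mean of the gene. The 3 SREBP system genes are blue (lower) and Soat1, Far1 and Far2 red (higher) in all L-733,060 samples.

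Other genes of the same pathways were taken from lists of 97 genes, of which 77 could be tested. Of these, 22 rose and 16 fell, with a median log2 change of 0.05. In all, 49.4% passed, against 41.3% of all tested genes (21.4% higher and 19.9% lower). By list, the share was 42.9% for further sterol synthesis, 41.7% for sterol control and uptake and 70% for efflux and liver X receptors. It was 58.3% for further fatty acid synthesis, 63.6% for uptake and activation, 38.5% for esters and triglycerides and 33.3% for ceramides. Among genes of sterol control and uptake, 3 of 12 rose and 2 fell (4 without L-733,060 sample 3). Lrp8, a lipoprotein receptor, rose from 1.63 to 5.40 CPM (log2 1.73, adjusted p = 0.000250).

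Of 10 genes of sterol efflux and the liver X receptors, 3 rose and 4 fell. Abcg1, a cholesterol exporter, fell from 188 to 97.7 CPM (log2 -0.94, adjusted p = 6.32e-05). Mylip, a ligase that degrades lipoprotein receptors, fell as well (log2 -0.89, adjusted p = 7.03e-05). Abca1, a cholesterol exporter and like both of these a classical liver X receptor target, rose (log2 0.51, adjusted p = 0.0175). It was named after its values were seen, and its call was lost without control 1 (adjusted p = 0.0783), control 2 (0.0662) or treated sample 2 (0.0591). Cyp7b1, an oxysterol hydroxylase, rose from 2.42 ± 0.661 to 18.7 ± 4.14 CPM (log2 2.94, SE 0.25, adjusted p = 3.37e-06).

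In the remaining fatty acid lists, 4 of 12 further synthesis genes rose and 3 fell. The higher count was 2 without control 1, control 2 or L-733,060 sample 1, and the lower count was 1 without L-733,060 sample 1 and 5 without L-733,060 sample 3. Hacd2, a dehydratase of the elongation cycle, fell (log2 -1.13, adjusted p = 3.16e-05), whereas its scarce relative Hacd1 (log2 2.09, adjusted p = 0.000665) and the desaturase family gene Fads3 (log2 1.35, adjusted p = 0.000326) rose. Of 11 genes of fatty acid uptake and activation, 5 rose and 2 fell. The lower count was 1 without scaling or without control 1, control 3 or L-733,060 samples 1 or 2, and 4 without L-733,060 sample 3, without the filter, with the replicate block or in DESeq2. Fabp5, the fatty acid-binding protein of epithelia, had 192, 237 and 205 CPM in controls and 2426, 1269.8 and 1171 CPM with L-733,060 (log2 2.94, adjusted p = 4.06e-06). Fabp4 (log2 3.68, adjusted p = 3.74e-05) and Cd36 (log2 1.95, adjusted p = 0.000341), which adipocytes and macrophages also express, rose from control means below 1 CPM.

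Of 13 further genes of esters and triglycerides, 2 rose and 3 fell. The lower count was 1 without control 3 or L-733,060 sample 1 and 5 without L-733,060 sample 3. Cidea, a droplet protein of brown fat and sebaceous glands, rose from 3.32 ± 1.03 to 23.5 ± 2.62 CPM (log2 2.82, adjusted p = 1.72e-06). Lipe, hormone-sensitive lipase, fell (log2 -1.03, adjusted p = 0.00148). Of 12 genes of ceramides and the lipid barrier, 4 rose and none fell. They included Degs1, the dihydroceramide desaturase (log2 1.60, adjusted p = 2.59e-05), Ugcg, the glucosylceramide synthase (log2 1.69, adjusted p = 2.78e-05), and Sptlc2, a subunit of the enzyme that starts sphingolipid synthesis (log2 0.68, adjusted p = 0.000731).

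The limbus is bulk tissue, so fewer cells of a type and less RNA per cell cannot be told apart, and marker lists moved with the groups. Corneal epithelial markers fell in 5 of 7 tested genes and rose in 1, and the 5 lower were 3 without L-733,060 sample 1. Krt12 fell from 19688 to 1646 CPM and Aldh3a1 from 8792 to 685 CPM, while Krt14, the 1 that rose, went from 1665 to 15440 CPM. The summed CPM of this list, which mixes these moves, was 58852 to 70319 in controls and 33509 to 41250 with L-733,060. Conjunctival epithelial markers rose in 8 of 9, and their sum went from 16824 to 17883 CPM in controls to 28103 to 32864 CPM. Muc4, the 1 that fell, went from 6470 to 4688 CPM (log2 -0.46, adjusted p = 0.0261). Its call was lost without control 1, control 3 or L-733,060 sample 1. Macrophage markers rose in 9 of 10, from 573 to 691 CPM to 803 to 976 CPM. Most of that sum was Itgam, the marker that did not pass (mean 559 CPM without and 560 CPM with the antagonist, log2 0.002). The sum therefore understates the rise of the other 9, of which 8 had a log2 change of at least 1. The largest were Msr1 (log2 3.87), Lyz2 (3.04) and Mrc1 (3.02). Keratocyte and fibroblast markers fell in 4 of 7 and rose in 3 (1 without control 1), from 2347 to 3435 CPM to 1510 to 2074 CPM, and epidermal markers rose in 1 of 4 tested and fell in 1.

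For the glands that make meibum-type lipid, only 3 of 9 meibomian and sebaceous markers could be tested, and all of them, Cidea and Mgst1 included, rose (2 without control 1 or L-733,060 sample 3), with summed TPM of 25.5 to 29.4 in controls and 98.5 to 106 with L-733,060. The treated sum, 101 TPM on average, was mostly Mgst1 (58.0 TPM) and Cidea (42.3 TPM). None of the 9 was at 0 in all samples, but Pparg had 1 to 13 counts per sample and Krt79 1 to 3. The 6 untested markers did not share a direction. Over all controls and all treated samples, Mogat1 had 15 and 3 counts, Scd3 6 and 3 and Pparg 19 and 18. Krt79 had 6 and 7, Gata6 3 and 5 and Mc5r 1 and 5. Of 8 adipocyte markers 2 were tested and both (Fabp4 and Lpl) rose. The summed CPM of the list was 1.90 to 2.16 in controls and 5.15 to 7.64 with L-733,060. The other 6 were too scarce to test and showed no common rise. Over all controls and all treated samples, Adipoq had 3 and 1 counts, Lep 6 and 0, Plin1 and Cfd 0 and 1 each and Retn 0 and 11. Cidec was at 0 in all samples. The Lpl call was lost without control 1, 2 or 3 or treated sample 3 (adjusted p of 0.0575, 0.0825, 0.0768 and 0.116). Of 8 lacrimal gland markers 2 were tested and 1 fell, and Prol1, Smr3a and Mucl2 were at 0 in all samples. The part of these shifts in the changes of the members was not tested.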

How the data were processed

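RNA was poly(A)-selected, and the submitters' processing notes name bcl2fastq, HISAT2 2.1.0, HTSeq 0.11.2 and the build mm10. Not given in the sources used here were their settings, the annotation release and the strand mode. The authors deposited a raw read count per gene and sample (unit: counts). Their deposited TPM values equal counts divided by gene length and rescaled in each sample, to within 4.96e-06. Total counts were 18708288 to 23541791 per sample, and no molecular identifiers are described, so counting intervals and floors cover counting error only. No pair of samples matched within sampling noise, the chi-square per degree of freedom within a group being at least 15.0.

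Counts were filtered with edgeR 4.0.16 in R 4.3.3 (filterByExpr with a minimum count of 10 and a minimum total of 15), leaving 15712 genes, and scaled by TMM. L-733,060 was compared with control in edgeR's two-sided quasi-likelihood F test, with a threshold of 0.05 after Benjamini-Hochberg adjustment over these genes. Adjusted p-values are from this test, and those under an alternative are from its own fit, adjusted over the genes tested there. The SE is the absolute log2 fold change divided by the square root of F, CPM are TMM-normalised, and values are mean ± SD of 3 samples. The method was tested on simulated counts. Genes with 3 or fewer counts in controls have a ratio with an exact 95% interval.

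The members, gene lists and tests were chosen with earlier results of these data known. All members were accounted for, and those past the threshold with a log2 change of at least 1 or with the smallest p of their role list are given in every sample. Up to 3 genes of smallest p past the threshold are named from each further list, apart from a few genes that are not reported here. Insig2, Scap, Abca1 and the genes of the observations were chosen after their values were seen, as were the members other than these that are given in every sample. Promoter windows are RefSeq sequences of GRCm38.p6, where the position of all 43 members equals that in the deposited table.

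Alternatives were DESeq2 1.42.0 size factors and test, no scaling, no filter, a replicate block, and leaving out each sample. Samples with the same number did not all deviate together, so the numbers were not taken as pairs.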

Additional observations from a re-analysis of the deposited data

How the results depend on the processing

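No gene of the lists past the threshold changed direction under any alternative, while 4 members near 0 that did not pass (Hmgcs1, Mvd, Dgat2 and Awat2) changed sign in at least 1. Of the 26 members past the threshold, 16 kept their call under all 12 alternatives, and the other 10 lost it when 1 library was left out. The 12 include the fit without control 1 and L-733,060 sample 3 given below. Leaving out 1 library gave 7 to 15 higher and 10 to 13 lower members, 2 to 6 higher and 2 to 4 lower sterol enzymes, 18 to 23 higher and 10 to 24 lower further lipid genes, and 2677 to 3722 higher and 2354 to 3788 lower genes of all tested. Of these, the count of 16 lower further lipid genes was 10 without L-733,060 sample 1. DESeq2's size factors and its test changed no member's call. Fasn passed without the filter (log2 -0.56, adjusted p = 0.000382), and Cers3 passed without scaling (log2 0.39, adjusted p = 0.0385) or without L-733,060 sample 3 (log2 0.47, adjusted p = 0.00481). Without scaling, the median of all genes shifted to 0.05 (log2) and 58.7% of calls were higher, against 51.8%. With the replicate block, 3609 genes were higher and 3462 lower, and of the members only Fasn gained a call (log2 -0.61, adjusted p = 0.0344). Samples of the same number had correlations of deviations of -0.0224, 0.273 and 0.133, and not every sample correlated best with its own number. Control 1 and L-733,060 sample 3 were also left out together, chosen after seeing the data because each was the highest of its group in Srebf1, Srebf2 and Fasn. That fit gave 15 higher and 13 lower members, with Fasn (adjusted p = 0.000242), Cers3 (0.0160) and Pmvk (0.0499) gained and Elovl5 lost (0.0574). Fasn values served to choose these samples, so its gain there is no independent test. The causes were not tested. At 3 samples per group and these depths, Awat1 and Elovl3 gave no reads and changes in Awat2 and Elovl4 were not detectable.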

Other observations

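Further genes of the lipid lists, picked after their values were seen, moved with the groups. Apoe, the apolipoprotein of lipid transport, had 531.9, 637.7 and 882.2 CPM in controls and 421.3, 353.5 and 400.4 CPM with L-733,060 (log2 -0.80, SE 0.17, adjusted p = 0.00297). Vldlr, another lipoprotein receptor, fell by 1.18 on the log2 scale (adjusted p = 0.00366). Cyp27a1, a mitochondrial sterol hydroxylase, rose from 21.9 ± 0.608 to 39.4 ± 5.23 CPM (log2 0.85, adjusted p = 0.000373). Acsl4, an acyl-CoA synthetase for polyunsaturated fatty acids, rose from 28.9 ± 1.90 to 50.8 ± 6.37 CPM (log2 0.81, adjusted p = 0.000436). Cyp4f39, a hydroxylase of ultra-long fatty acids, had 0.971, 0.752 and 0.385 CPM in controls and 4.62, 0.910 and 3.53 CPM with L-733,060, where sample 2 lay near the controls (log2 2.11, SE 0.53, adjusted p = 0.00717).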
